A study of Cavia porcellus with 12 samples.

Results

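The unfolded protein response genes described here are the sensors, transcription factors and chaperones by which a cell answers misfolded protein in the endoplasmic reticulum (ER). A list of 10 well-known genes of this response was looked up by symbol in the deposited expression table, which holds 11896 human orthologue symbols. Of these, 9 were rows of the table: *EIF2AK3*, *ERN1*, *ATF6*, *ATF4*, *XBP1*, *DDIT3*, *HSP90B1*, *PDIA4* and *DNAJB9*. The values of *HSPA5*, which encodes the chaperone BiP, were not analysed here. Each of the 9 genes had a count row of its own, so none shared its counts with another symbol.

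Liver RNA was sequenced from 12 female Hartley guinea pigs, a strain given as Dunkin Hartley in the sample labels. The 6 NASH (nonalcoholic steatohepatitis) animals had eaten a high-fat diet with added sucrose and cholesterol for 25 weeks, and the 6 controls had eaten chow for 25 weeks. All animals arrived at 10 weeks of age, and the tissue came from the left lateral lobe of livers that had not been perfused. The NASH animals were picked for grade 3 (bridging) fibrosis and the controls at random from animals without NASH or fibrosis, so that diet and disease cannot be told apart and milder disease is not covered. Each animal gave 1 library, and animals are named by group and animal number. Control libraries held 16980274 to 28636467 counts and NASH libraries 23704607 to 33091460. *ALB*, the albumin gene and a defining marker of hepatocytes, stood at 66427 to 85804 CPM (counts per 1000000 counts of the scaled library) in controls and at 23971 to 39064 CPM in NASH.

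Misfolded protein in the ER is detected by the membrane proteins IRE1 (*ERN1*), PERK (*EIF2AK3*) and ATF6, which BiP holds inactive in the resting state. IRE1 splices the *XBP1* transcript, PERK phosphorylates the initiation factor eIF2 and so favours translation of *ATF4*, and ATF6 is cut by proteases of the Golgi to release a transcription factor. XBP1 and ATF6 raise chaperone and degradation genes, while ATF4 raises amino acid metabolism genes and *DDIT3*; hepatocytes, which secrete most plasma proteins, rely on this system. Counts per gene show the amount of a transcript and not its splicing, the phosphorylation of eIF2 or the cleavage of ATF6.

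The question was whether the transcripts of this response differed between NASH and control livers. *XBP1*, *DNAJB9* and *PDIA4* were lower in NASH, *EIF2AK3* was higher, and *ATF4*, *ATF6*, *ERN1*, *DDIT3* and *HSP90B1* did not pass the test (edgeR quasi-likelihood test, Benjamini-Hochberg adjusted p under 0.05 over all 11896 symbols). The largest of these differences was that of *XBP1*, 1.89-fold lower in NASH. Among all symbols 27.6% were higher and 26.7% lower in NASH by the same rule, against 11.1% and 33.3% of the 9 genes. The 9 genes had a median log2 fold change of -0.11, and all symbols -0.01. NASH and control values did not overlap for 3 genes, each with every NASH animal below every control, and for 0 genes with every NASH animal above. Over all symbols, NASH lay below every control for 15.7% and above every control for 18%.

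**Figure D1:**
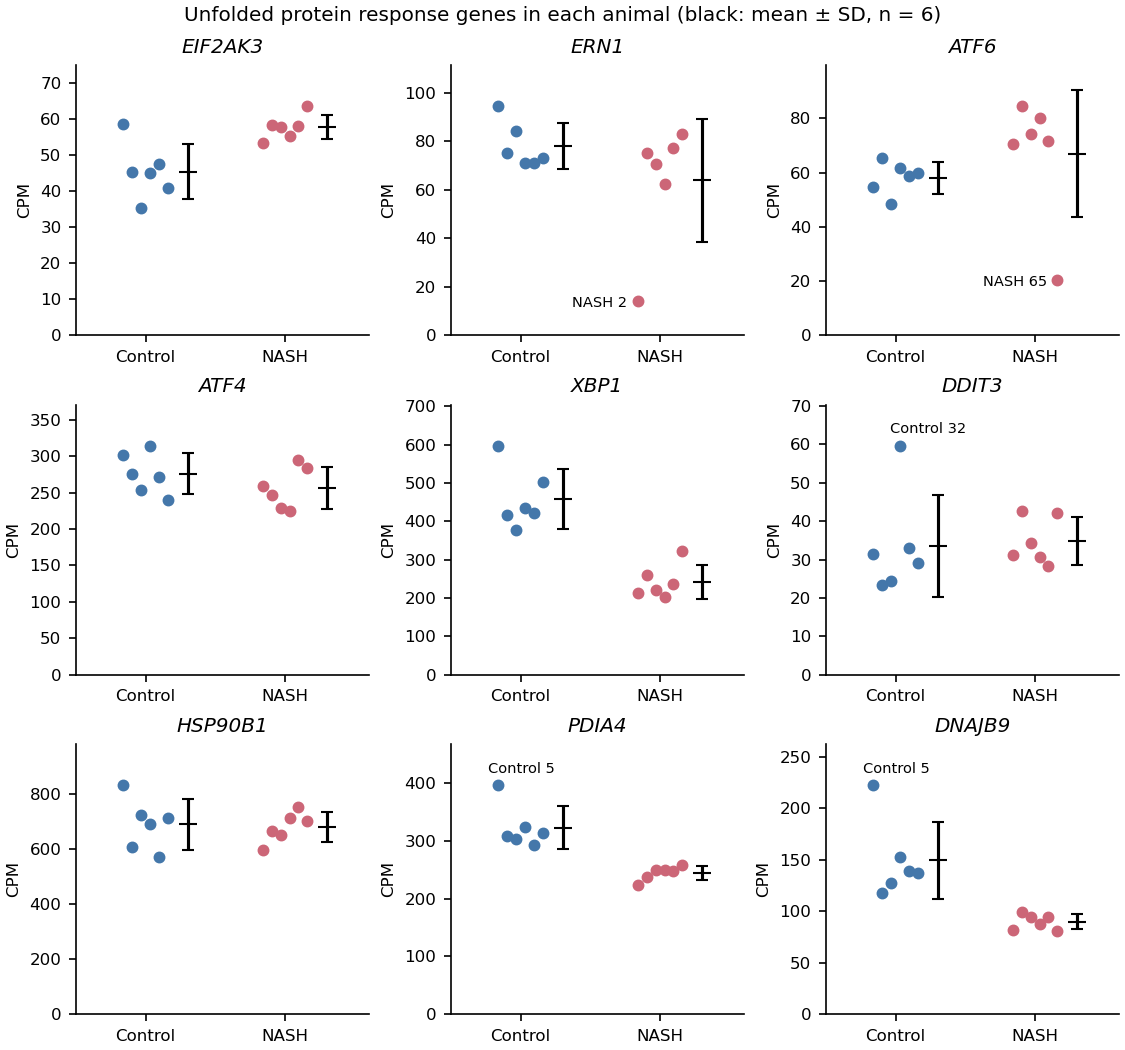
Level in CPM (vertical axis starting at 0) of the 9 unfolded protein response genes in each control (blue) and NASH (red) animal, with the mean and SD of each group of 6 in black beside the points. *XBP1*, *PDIA4* and *DNAJB9* separate the groups, while a single NASH animal is low in *ERN1* (NASH 2, 14.3 CPM) and another in *ATF6* (NASH 65, 20.4 CPM).

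Among the sensors, *EIF2AK3*, which encodes PERK, was measured at 35.3 to 58.6 CPM in controls, with a median of 45.3, and at 53.5 to 63.6 CPM in NASH, with a median of 58. All 6 NASH animals were above the control median, and the groups overlapped only through Control 5, the highest control. Controls averaged 45.5 ± 7.77 CPM and NASH animals 57.8 ± 3.39 CPM (SD, n = 6 each). The log2 fold change was 0.35 ± 0.10 (SE, edgeR adjusted p = 0.0123). Without Control 5 the log2 fold change was 0.43 (edgeR adjusted p = 0.000947). The spread between animals of the NASH group was narrow, with a coefficient of variation of 5.86% against 17.1% in controls.

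*ERN1*, the gene of the IRE1 kinase and nuclease, ranged from 70.9 to 94.4 CPM in controls around a median of 74. In NASH the values ran from 14.3 to 82.9 CPM around a median of 73. The low end was NASH 2 alone, with 422 counts, and the other NASH animals lay between 62.4 and 82.9 CPM. The log2 fold change was -0.29 ± 0.31 (SE, edgeR adjusted p = 0.446), and its 95% interval ran from -0.89 to 0.31. Without NASH 2 it was -0.09 (edgeR adjusted p = 0.479).

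*ATF6* stood at 48.3 to 65.2 CPM in controls, with a median of 59.2. In NASH it ranged from 20.4 to 84.4 CPM with a median of 73. Apart from NASH 65, which had 582 counts and the lowest value of all 12 animals, every NASH animal was above the highest control. The log2 fold change over all animals was 0.21 ± 0.26 (SE, edgeR adjusted p = 0.522), with a 95% interval from -0.30 to 0.71. Without NASH 65 it was 0.38 (edgeR adjusted p = 0.00254), and without both NASH 2 and NASH 65 it was 0.41 (edgeR adjusted p = 0.00359). With the scaling used here the call on *ATF6* thus rests on 1 library. It also depends on the scaling, since with library totals alone *ATF6* was called higher over all animals, at 0.70 (edgeR adjusted p = 0.0314). The fit without both animals was added after the values had been seen.

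Drops in a single animal occurred in every library. Counting rows in which an animal was at least 3-fold below the lowest other animal of its group, with the others at 10 CPM or more, gave 3 to 25 rows per animal. NASH 2 had 10 such rows of 7124 and NASH 65 had 14 of 7141, and *ERN1* and *ATF6* were the only members among them. The counts refer to loci assembled by StringTie, and whether reads of *ERN1* in NASH 2 or *ATF6* in NASH 65 were counted at another locus was not tested.

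Of the transcription factors, *XBP1* had the largest difference. It was measured at 377 to 597 CPM in controls with a median of 428 and at 203 to 324 CPM in NASH with a median of 229. Every NASH animal was below every control. The counts behind these values were 7418 to 10208 in controls and 6277 to 9297 in NASH. The mean fell from 458 ± 79.0 CPM (SD, n = 6) to 243 ± 44.5 CPM (SD, n = 6), a log2 fold change of -0.91 ± 0.14 (SE, edgeR adjusted p = 9.88e-05). Leaving out each animal in turn gave between -1.03 and -0.83. Among the NASH animals NASH 65 had the highest *XBP1* value and NASH 20 the lowest.

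*ATF4*, whose protein is made preferentially when eIF2 is phosphorylated, was at 240.2 to 314 CPM in controls with a median of 273, and at 224 to 295 CPM in NASH with a median of 253. The groups overlapped over most of their range, with 4 of 6 NASH animals below the control median. The log2 fold change was -0.11 ± 0.09 (SE, edgeR adjusted p = 0.348) with a 95% interval from -0.28 to 0.07.

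*DDIT3*, which encodes the pro-apoptotic factor CHOP, had 431 to 1470 counts per library. It stood at 23.4 to 59.6 CPM in controls with a median of 30.3, and at 28.2 to 42.7 CPM in NASH with a median of 32.6. Control 32 had the highest value of all 12 animals, and the next control was at 33 CPM. The log2 fold change was 0.06 ± 0.21 (SE, edgeR adjusted p = 0.843), and the 95% interval from -0.36 to 0.47 leaves room for a change in either direction. Without Control 32 the log2 fold change was 0.30 (edgeR adjusted p = 0.0844).

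The chaperones differed among themselves. *HSP90B1* encodes GRP94, the HSP90 of the ER, and was at 569.7 to 831 CPM in controls with a median of 703 and at 598 to 753 CPM in NASH with a median of 685. The NASH values lay wholly within the control range. The log2 fold change was -0.02 ± 0.10 (SE, edgeR adjusted p = 0.872) with a 95% interval from -0.21 to 0.17.

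*PDIA4*, a protein disulfide isomerase, ranged from 293 to 396 CPM in controls with a median of 311 and from 224 to 259 CPM in NASH with a median of 248. Each NASH animal was below the lowest control. The mean fell from 323 ± 37.6 CPM (SD, n = 6) to 245 ± 12.3 CPM (SD, n = 6), a log2 fold change of -0.40 ± 0.08 (SE, edgeR adjusted p = 0.000877). *DNAJB9*, the BiP co-chaperone ERdj4, was measured at 118 to 222 CPM in controls with a median of 138 and at 80.7 to 98.9 CPM in NASH with a median of 90.8. The groups again did not overlap. Its mean fell from 149 ± 37.5 CPM (SD, n = 6) to 89.7 ± 7.39 CPM (SD, n = 6), a log2 fold change of -0.74 ± 0.14 (SE, edgeR adjusted p = 0.000559).

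Control 5 was the highest control in *XBP1*, *ERN1*, *EIF2AK3*, *HSP90B1*, *PDIA4* and *DNAJB9*, 6 of the 9 genes, and the lowest in 0. Over all symbols it was the highest control for 22.4% and the lowest for 26.4%. Without Control 5 the log2 fold changes were -0.83 for *XBP1*, -0.59 for *DNAJB9* and -0.33 for *PDIA4*, and the 3 genes passed the test (edgeR adjusted p = 0.000162, 9.45e-05 and 0.000521).

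Levels of several cell markers also differed between the groups. Of 8 hepatocyte markers 7 were lower in NASH, and their summed level was 106416 to 135912 CPM in controls and 41131 to 68775 CPM in NASH. All 6 stellate cell markers and all 5 cholangiocyte markers were higher, with sums of 548 to 660.2 CPM against 1059 to 2122 CPM and of 73.5 to 115 CPM against 301 to 537 CPM. Plasma cells depend on *XBP1* for secretion. Of 5 markers used for them, 3 were higher in NASH, and the sum was 12.4 to 33.1 CPM in controls and 25.2 to 34.9 CPM in NASH. *JCHAIN*, the marker with the highest CPM in controls, was at 3.51 to 23.2 CPM in controls and 5.26 to 10.1 CPM in NASH. All 3 erythroid markers were higher, with sums of 57.2 to 172 CPM and 424 to 4510.1 CPM. Of 6 macrophage markers 1 was higher and 1 lower, with sums of 309 to 581 CPM and 498 to 699 CPM, and of 6 T cell markers 2 were higher and 1 lower, with sums of 58.5 to 113 CPM and 45.2 to 71.2 CPM. With library totals alone, genes higher and lower were 1 and 4 for hepatocytes, 4 and 1 for macrophages, 3 and 1 for T cells and 4 and 0 for plasma cells, and the stellate, cholangiocyte and erythroid counts were as above. The part of cell composition in the values of the 9 genes was not tested, and in bulk tissue fewer cells of a type and less RNA per cell cannot be told apart.

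The scaling between libraries bears on every direction given here. The TMM factors, which correct library totals for composition, were 0.801 to 0.873 in controls and 1.116 to 1.244 in NASH. With library totals alone the median of all symbols moved up by 0.48 on the log2 scale, 63.9% of symbols were higher and 7.66% lower, and 5 of the 9 genes were called higher and 1 lower. *XBP1* was then the gene still called lower, at -0.43, and *DNAJB9* stood at -0.25 (edgeR adjusted p = 0.0939), *PDIA4* at 0.09 (0.266) and *EIF2AK3* at 0.83. Relative to the median of all symbols the values were nearly those of the TMM fit: -0.91 for *XBP1*, -0.72 for *DNAJB9*, -0.39 for *PDIA4* and 0.36 for *EIF2AK3*. DESeq2 gave the same direction as edgeR for each of these 4 genes.

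**Figure D2:**
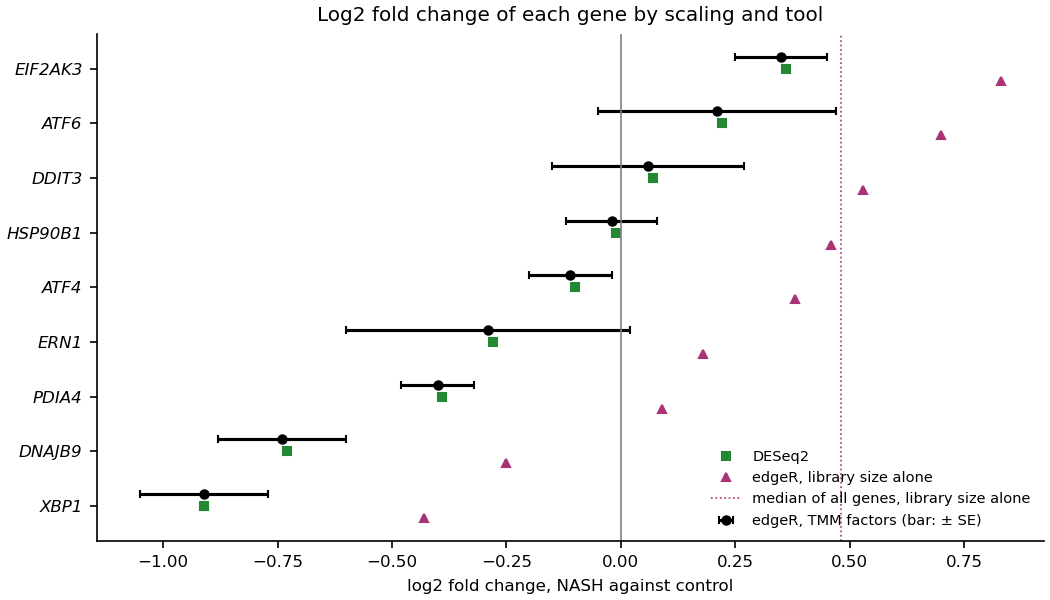
Log2 fold change (horizontal axis, NASH against control) of the 9 genes with edgeR and TMM factors (black, bar ± SE), DESeq2 (green) and edgeR with library totals alone (purple), where the dotted line is the median of all symbols under library totals alone. The purple points sit about 0.48 to the right of the black ones, and *XBP1* is to the left of 0 in every fit shown, from -0.91 to -0.43.

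Ratios between members within an animal do not depend on the scaling, so the log2 ratio of the counts of each of the 36 pairs was compared between groups (two-sided exact permutation test over 924 assignments, smallest possible p 0.00216). In 16 of 36 pairs the ratio differed after Benjamini-Hochberg adjustment. Each of these pairs held *XBP1*, *EIF2AK3*, *DNAJB9* or *PDIA4*, the genes called above, so the count is not separate from those calls. The share of differing ratios among pairs of other genes was not computed. The ratio of *XBP1* to *EIF2AK3* changed most. It was 3.15 to 3.61 on the log2 scale in controls and 1.87 to 2.35 in NASH, a difference of -1.28 (exact permutation test, adjusted p = 0.00779). *XBP1* also fell relative to *HSP90B1* by 0.90, to *ATF4* by 0.81 (adjusted p = 0.00779 each, exact permutation test) and to *PDIA4* by 0.52 (adjusted p = 0.013). Its ratio to *DNAJB9* differed by -0.21 and did not pass (exact permutation test, adjusted p = 0.286), with control values of 1.43 to 1.87 and NASH values of 1.22 to 2.01.

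The chaperone genes diverged from each other by the same measure. The log2 ratio of *HSP90B1* to *PDIA4* was 0.96 to 1.26 in controls and 1.38 to 1.61 in NASH, a rise of 0.38 with no overlap, and that of *HSP90B1* to *DNAJB9* rose by 0.70 (exact permutation test, adjusted p = 0.00779 for both). *DNAJB9* fell relative to *PDIA4* by 0.31 (exact permutation test, adjusted p = 0.013), with overlapping groups. Among the sensors *EIF2AK3* rose relative to *PDIA4* by 0.76 and to *DNAJB9* by 1.07, and *ERN1* fell relative to *EIF2AK3* by 0.83 (exact permutation test, adjusted p = 0.00779 for all 3). NASH 2 carried part of the *ERN1* ratio, which without it differed by -0.46 (exact permutation test, adjusted p = 0.012). Without NASH 2, *ERN1* also rose relative to *XBP1* by 0.80, to *DNAJB9* by 0.60 and to *PDIA4* by 0.29 (exact permutation test, adjusted p = 0.012, 0.012 and 0.0243). The ratio of *ATF4* to *PDIA4* then no longer passed (exact permutation test, adjusted p = 0.0574). The ratio of *ATF4* to *HSP90B1* was -1.57 to -1.07 in controls and -1.67 to -1.21 in NASH, a difference of -0.09 that did not pass (exact permutation test, adjusted p = 0.554). Without NASH 65, 23 of 36 ratios passed, and without other single animals 14 to 18 did. The additional ratios were those of *ATF6* to *XBP1*, *ATF4*, *ERN1*, *HSP90B1*, *DNAJB9* and *PDIA4*, in each of which *ATF6* rose, and that of *XBP1* to *DNAJB9*, which then differed by -0.32 (exact permutation test, adjusted p = 0.00917).

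**Figure D3:**
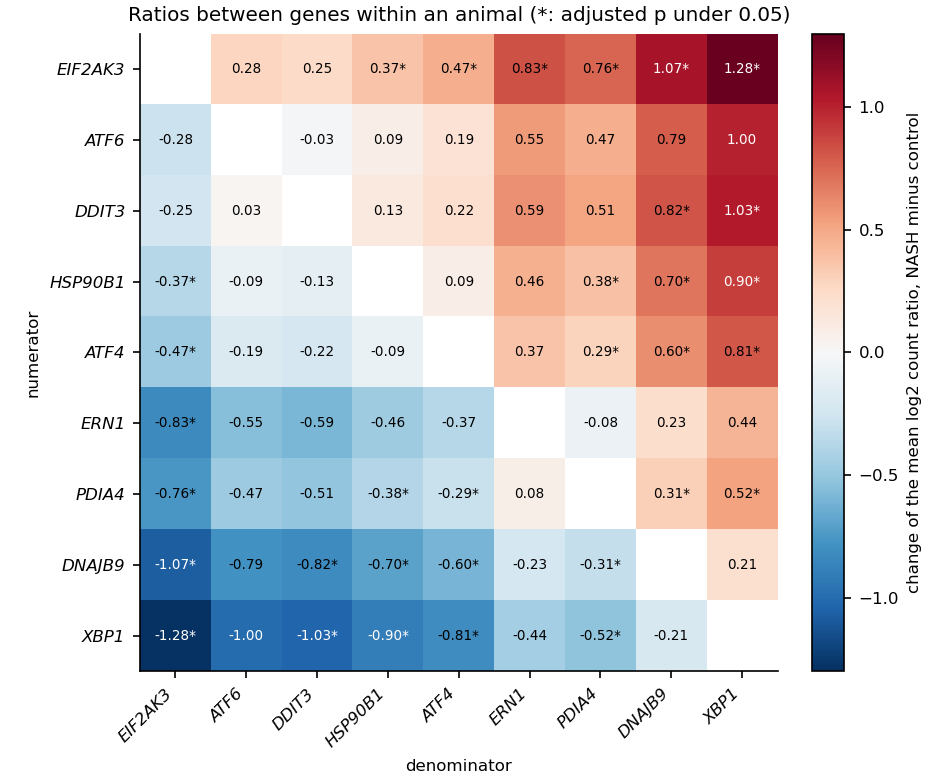
Difference between NASH and control in the mean log2 count ratio of each pair of genes, with the numerator gene on the vertical and the denominator gene on the horizontal axis. An asterisk marks an adjusted p under 0.05 (exact permutation test, 36 pairs, n = 6 per group). The strongest colours are in the *XBP1* and *EIF2AK3* rows, which meet at -1.28 and 1.28, while *ATF4* against *HSP90B1* is near 0 at -0.09.

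Within a group, the log2 CPM of the 9 genes were compared over the 6 animals as 72 relations, 36 in each group. None passed after adjustment (smallest adjusted p = 0.481, exact permutation over 720 pairings), and 4 had an unadjusted exact p under 0.05. Over 72 relations of 6 animals each, a single relation could not pass at any strength, so the adjusted test cannot decide here. Chance alone gives an unadjusted p under 0.05 in about 1 in 20 relations. The smallest was *XBP1* with *EIF2AK3* in NASH, with Pearson's r = 0.92 (exact permutation p = 0.00972) and Spearman's rho = 0.94 (exact permutation p = 0.0167). Without the 2 animals farthest from the median of *XBP1*, r was 0.71. *XBP1* with *PDIA4* in controls gave r = 0.86 (exact permutation p = 0.0431) and 0.42 without the 2 farthest animals, with rho = 0.77 (exact permutation p = 0.103). *DNAJB9* with *PDIA4* in controls gave r = 0.92 (exact permutation p = 0.0458), falling to 0.59, with rho = 0.60 (exact permutation p = 0.242). *HSP90B1* with *PDIA4* in controls gave r = 0.80 (exact permutation p = 0.0361), falling to 0.06, with rho = 0.60. The 3 relations in controls thus rest in part on the animals at the ends of the range, among them Control 5.

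Ranked by Pearson's r with *HSP90B1* over the 12 animals after centring each group, the 5 most alike of 11030 other count rows were *PSMA4*, a proteasome subunit, at 0.90, *PDIA6*, an ER disulfide isomerase, at 0.89, *TUBE1* at 0.88, *HDHD5* at 0.87 and *IER3IP1*, a small ER protein, at 0.86. *PDIA4* had rank 24 with 0.78, *DNAJB9* rank 277 with 0.61, *ERN1* rank 662 with 0.50 and *XBP1* rank 804 with 0.48. The other members were less alike, with *EIF2AK3* at 0.25 (rank 2551), *ATF4* at 0.23 (rank 2739), *DDIT3* at 0.02 (rank 4969) and *ATF6* at -0.18 (rank 7160). These values are a description over animals that share their libraries.

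The wider pathway was covered by lists of its other genes, whose counts are to be read against the 27.6% of all symbols higher and 26.7% lower in NASH and a median of -0.01. Unlike the 9 genes, some list genes shared a count row with other symbols, so their counts cannot be assigned to 1 gene. These were *DNAJB11*, *FKBP2*, *CNPY2* and *SEC11A*, all called lower, and *AARS1*, *SRP68* and *BAX*, which were not called. Of 27 further ER chaperones and folding enzymes found in the table, 3 (11.1%) were higher and 11 (40.7%) lower in NASH (edgeR, adjusted p under 0.05). Their median log2 fold change was -0.20. The number lower was 5 with every row that had a count, 7 with filterByExpr and 6 at a threshold of 0.01, and with library totals alone 17 were higher and 1 lower. Of all 11896 symbols, 3171 were lower in the fit first given, 2238 with every row, 2636 with filterByExpr and 2338 at 0.01. *QSOX1*, a sulfhydryl oxidase, was at 12.4 to 17.5 CPM in controls and higher in NASH, at 53.2 to 87.1 CPM (log2 fold change 2.16 ± 0.13, SE, edgeR adjusted p = 1.07e-07). *ERO1A*, an oxidase that recharges disulfide isomerases, was higher by 0.45 on the log2 scale (edgeR adjusted p = 0.00624), while its paralogue *ERO1B* fell by 0.69 (edgeR adjusted p = 8.64e-05). *TXNDC11*, a thioredoxin-domain protein of the ER, had the lowest log2 fold change of those called, -0.87 (edgeR adjusted p = 0.000419).

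ER-associated degradation moves misfolded protein to the proteasome. Of its 23 genes 1 (4.35%) was higher and 12 (52.2%) lower (median -0.27). *HERPUD1*, a component of the degradation complex, had a median of 133 CPM in controls and 44.4 CPM in NASH, with overlap through NASH 11 at 90.9 CPM, and a log2 fold change of -1.32 ± 0.26 (SE, edgeR adjusted p = 0.000944). *AUP1* fell by 0.60 on the log2 scale without overlap (edgeR adjusted p = 3.9e-05). *DERL3*, a derlin, was the 1 gene higher (2 without Control 45), at 0.574 to 1.77 CPM in controls and 2.62 to 4.58 CPM in NASH (log2 fold change 1.80, edgeR adjusted p = 0.000127).

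The ER translocon and signal peptidase, through which secretory proteins enter the ER, had 0 of 22 genes higher and 9 (40.9%) lower, with a median of -0.15. *SEC11C*, a catalytic subunit of the signal peptidase, fell from a median of 80.6 to 41.8 CPM (log2 fold change -0.89, edgeR adjusted p = 9.53e-05), and *SEC62* fell from a median of 255 to 183 CPM (-0.53, edgeR adjusted p = 7.13e-05). Neither overlapped between groups. No gene of this list was called higher, but without Control 5 there were 2.

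Target genes of ATF4 were split. Of 26 found, 13 (50%) were higher and 6 (23.1%) lower (median 0.29), although *ATF4* itself did not pass. *MTHFD2*, a mitochondrial folate enzyme, was at 10.4 to 21 CPM in NASH, while 5 of 6 controls had no count and Control 45 had 9 counts (0.371 CPM). *CHAC1*, which degrades glutathione, was at 1.57 to 3.03 CPM in NASH, and had no count in 5 controls and 4 counts in Control 32 (0.184 CPM). Set against 0.215 CPM, which is 3 counts in Control 5, the library with the highest such limit, the NASH means were at least 63.8-fold higher for *MTHFD2* and at least 10-fold higher for *CHAC1* than the controls without a count. The median of the list was 0.29 with both genes at these bounds as well. In the other direction, *CTH*, which makes cysteine from cystathionine, was at 499.8 to 709 CPM in controls and 149.7 to 250.4 CPM in NASH (log2 fold change -1.46 ± 0.13, SE, edgeR adjusted p = 1.7e-06). *DDIT4*, an inhibitor of mTORC1, had a log2 fold change of -1.27 ± 0.43 (SE, edgeR adjusted p = 0.0233) with overlapping groups, and lost its call without Control 10 (-1.06, edgeR adjusted p = 0.0566), without Control 32 (-1.11, 0.0521), with every row that had a count (-1.17, 0.0603) and with library totals alone (-0.80, 0.102).

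Among 12 further genes of the eIF2 branch, 2 (16.7%) were higher and 4 (33.3%) lower (median -0.16). The phosphatase genes differed in direction. *PPP1R15B*, the constitutive subunit that directs phosphatase to eIF2, fell by 0.86 on the log2 scale with overlapping groups (edgeR adjusted p = 0.0174), while *PPP1CA*, a catalytic subunit, was higher by 0.25 and *NCK1*, an adaptor, by 0.42 (edgeR adjusted p = 0.00226 and 0.000977). *EIF2B3*, a subunit of the exchange factor eIF2B, was at 17.2 to 19 CPM in controls and 12.1 to 14 CPM in NASH (log2 fold change -0.46, edgeR adjusted p = 3.39e-05).

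The ER-stress transducers and their partners had 2 of 12 genes (16.7%) higher and 5 (41.7%) lower, with a median of -0.07. *MBTPS2*, the protease that makes the last cut in ATF6, was at 5.61 to 9.18 CPM in controls and 10.6 to 12.2 CPM in NASH (log2 fold change 0.62, edgeR adjusted p = 0.00148). *CREB3L2*, an ER-bound factor related to ATF6, was higher by 0.49 (edgeR adjusted p = 0.0257), and lost its call without Control 56 (0.45, edgeR adjusted p = 0.0524) or without NASH 9 (0.43, edgeR adjusted p = 0.0594). *NFYB*, a subunit of the factor that binds DNA beside ATF6, had a log2 fold change of -1.04 (edgeR adjusted p = 0.00219). *CREB3L3*, an ER-bound factor of hepatocytes, was at 38.6 to 80.4 CPM in controls and 21.3 to 35.1 CPM in NASH (log2 fold change -0.93, edgeR adjusted p = 0.000519).

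Of 6 genes of the BCL2 family found, which set the threshold for apoptosis downstream of CHOP, 2 (33.3%) were higher and 1 (16.7%) lower (median -0.05). *PMAIP1* (NOXA) was at 1.29 to 2.57 CPM in controls and 4.1 to 5.97 CPM in NASH, and *BAK1* at 5.81 to 8.32 CPM and 13.1 to 18.5 CPM (log2 fold changes 1.25 and 1.13, edgeR adjusted p = 7.06e-05 and 4.02e-06). *BOK* had a log2 fold change of -0.65 with overlapping groups (edgeR adjusted p = 0.0165). *BAX*, 1 of the 6 and not called, was on a count row shared by 3 symbols. That row had a mean of 2696 CPM in controls and 2344 CPM in NASH.

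**Figure D4:**
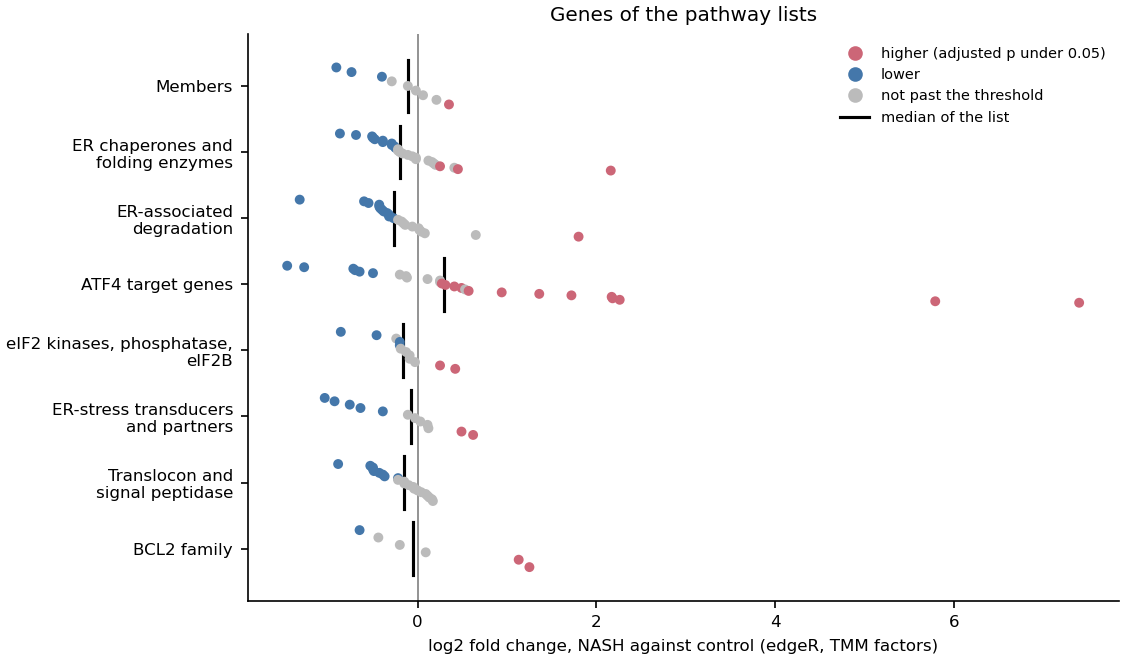
Log2 fold change (horizontal axis, NASH against control, edgeR with TMM factors) of every gene of the 9 members and of the 7 pathway lists, with genes higher in red, lower in blue and not past the threshold in grey, and the median of each list as a black bar. The medians run from -0.27 for ER-associated degradation to 0.29 for ATF4 target genes, whose points reach farthest to the right.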

How the data were processed

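Stranded mRNA libraries of 12 livers were sequenced as single reads. The authors trimmed the reads with Trimmomatic 0.38.0 (9 leading bases removed, reads under 50 bases dropped), mapped them with Hisat2 2.1.0 to Cavpor3.0, ignored reads with several locations, assembled and quantified loci with StringTie 1.3.6 and deposited raw counts for 39061 loci. Ignoring such reads lowers the counts of genes with near-identical copies. The authors also deposited log2 values (rlog, DESeq2) of 11896 human orthologue symbols with at least 200 counts in total. The count table names loci and not symbols, so the rlog was repeated with DESeq2 1.42.0 on the 18422 rows with 200 counts or more, and each symbol was given the count row that returned its deposited values (largest difference 8.4e-07). This paired all symbols with 11031 rows, and 1515 symbols shared a row. Between 78.2% and 79.9% of the counts of a library were in these rows. Every pair of libraries of a group differed by more than counting error.

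Counts were tested with edgeR 4.0.16 in R 4.3.3 (TMM factors, totals of the whole table as library size, robust glmQLFit, glmQLFTest, no covariate), and p-values were Benjamini-Hochberg adjusted over all symbols. CPM were computed with library sizes multiplied by the TMM factors, and their log2 with a prior count of 2. The SE was derived from the F statistic of each gene (log2 fold change divided by its root), and 95% intervals use this SE and the normal quantile. Count ratios between genes and relations within a group were tested with exact permutation tests in scipy 1.17.1. For a count of 0 the upper limit used was 3 counts, for counting error only. The edgeR test was checked on simulated counts in which few rows changed, in both directions. That check does not cover the permutation tests or the scaling between libraries. Groups and animal numbers came from the sample titles, and each animal is a separate sample.

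The genes and lists were chosen with earlier results of these data known. Every gene of the response is named, and from each pathway list up to 2 genes with the highest and up to 2 with the lowest log2 fold change among those called. Relations and likeness had been planned against *HSPA5*. After the table was seen, all pairs of the 9 genes and *HSP90B1* took its place. A planned search of promoters for binding motifs was not run. Alternatives were RLE and upper-quartile factors, library totals alone, DESeq2, limma-voom, limma 3.58.1 on the deposited rlog values, every row with a count, filterByExpr, a threshold of 0.01, each animal left out, and NASH 2 and NASH 65 left out together, the last added after the data were seen.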

Additional observations from a re-analysis of the deposited data

Results flagged for a closer look

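Single animals stood apart from the other 5 of their group by Dixon's criterion (gap over range above 0.625 for 6 values), which chance alone meets in about 1 in 20 groups. Over all symbols the criterion was met for 9.33% in controls and 8.05% in NASH, and over the 9 unfolded protein response genes for 3 in controls and 2 in NASH.

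Among these genes, *ATF6* was at 20.4 CPM in NASH 65, against 70.6 to 84.4 CPM in the other NASH animals. *ERN1* was at 14.3 CPM in NASH 2, against 62.4 to 82.9 CPM in the others. *DDIT3* was at 59.6 CPM in Control 32, against 23.4 to 33 CPM in the other controls. Control 5 was high in *DNAJB9*, at 222 CPM against 118 to 153 CPM, and in *PDIA4*, at 396 CPM against 293 to 324 CPM.

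Among the named genes of the pathway lists, *HERPUD1* was at 90.9 CPM in NASH 11, against 33.6 to 48.2 CPM in the other NASH animals, and *CREB3L3* was at 21.3 CPM in NASH 20, against 32.3 to 35.1 CPM. *EIF2B3* was at 19 CPM in Control 56, against 17.2 to 17.8 CPM in the other controls. *MTHFD2* was at 0.371 CPM in Control 45 and *CHAC1* at 0.184 CPM in Control 32, while the other controls had no count of either gene.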

How the results depend on the processing

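No paired analysis was possible because the groups share no animal number. *XBP1* kept its direction and its call under all 22 alternatives to the fit with TMM factors, between -1.03 and -0.43. *EIF2AK3* kept both except that it lost its call at the threshold of 0.01. With library totals alone *DNAJB9* lost its call, and *PDIA4* lost both its call and its direction. Both genes kept them under the other alternatives. Of the named list genes, *ERO1B* (adjusted p = 0.0995), *AUP1* (0.196), *SEC62* (0.532), *PPP1R15B* (0.253), *BOK* (0.434), *EIF2B3* (0.752) and *DDIT4* (0.102) also lost their edgeR call with library totals alone. With library totals alone, 7600 symbols were higher and 911 lower, and log2 fold changes turned positive for *ATF4* (0.38), *ERN1* (0.18), *HSP90B1* (0.46), *PDIA4* (0.09) and *EIF2B3* (0.02). *HSP90B1* was also above 0 with upper-quartile factors (0.05), every row (0.08), filterByExpr (0.04), without Control 5 (0.04), without NASH 2 (0.01) and without both NASH 2 and NASH 65 (0.00). *DDIT3* was below 0 without Control 10 (-0.03), Control 31 (-0.02), NASH 9 (-0.01) or NASH 65 (-0.02), and leaving out single animals gave -0.03 to 0.30 for it and -0.07 to 0.04 for *HSP90B1*. The cause was not tested beyond the shift of 0.48 that library totals give all symbols.

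With library totals alone, genes higher and lower were 5 and 1 for the response genes, 17 and 1 for chaperones, 11 and 1 for degradation, 8 and 0 for the eIF2 list, 7 and 3 for transducers and 12 and 1 for the translocon. Of the ATF4 targets 1 was then lower, and of the BCL2 family 0. At a threshold of 0.01 there were 0 response genes higher, 6 chaperones lower, 1 gene of the eIF2 list lower, 1 transducer higher and 0 genes of the BCL2 family lower. Chaperones lower were 5 with every row and 7 with filterByExpr. Genes of the eIF2 list lower were 2 with upper-quartile factors, every row or filterByExpr. Of all symbols, 3171 were lower in the main fit and 2664 with upper-quartile factors. The number was 2238 with every row, 2636 with filterByExpr and 2338 at a threshold of 0.01. Translocon genes higher were 2 with upper-quartile factors, 2 with every row and 1 with filterByExpr. Without both NASH 2 and NASH 65, 2 response genes and 1 transducer were higher. With each animal left out in turn, genes higher ranged from 1 to 2 for the response genes, 1 to 2 for degradation, 1 to 3 for transducers and 0 to 2 for the translocon. With 6 animals a group, the 95% intervals given for genes that did not pass are the limit on what could be seen.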
